A study of Mus musculus with 4 samples.

Results

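The genes described here are the ones whose array signal was higher in both islet samples given MOTS-c than in both samples given a scrambled peptide. MOTS-c is a short peptide encoded within the 12S rRNA gene of the mitochondrial genome, and the study asked how it changes islet cells of aged mice. A probe was selected on its own values when it carried a gene symbol, had a mean normalized level of at least 9 over the 4 arrays (log2 of the background-corrected intensity after quantile normalization), and had its lower MOTS-c value at least 0.3 above its higher scrambled value. That last difference is called the gap below, and a probe over the level limit is called bright. Levels of different probes are not compared, since probes bind with different strength. Of 12815 bright probes with a symbol, of 9931 genes, 85 probes of 84 genes met the rule, which is 0.663%. All 84 genes code for proteins in the RefSeq table. The mirrored rule, with MOTS-c lower, took 292 probes of 275 genes, which is 2.28%, and no gene was in both sets.

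Islets were isolated from 4 littermate C57BL/6 mice, 60 weeks old and labeled as males, then handpicked and dispersed to single cells. The cells were treated ex vivo for 24 h with 10 μM of either peptide, 2 samples per group. Total RNA was hybridized to one-color Agilent mouse expression arrays that all lie on 1 slide. The scrambled arrays carry the replicate numbers 1 and 2, and the MOTS-c arrays the numbers 2 and 3. The samples were mixed islet cells in culture, so more cells of a type and more RNA per cell cannot be told apart. MOTS-c was compared with another peptide rather than with untreated cells.

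Islet cells respond to a changed environment through several well-known programs. Immediate early genes such as those of the Nr4a family and Atf3 are transcribed within minutes of a calcium, cAMP or stress signal, without new protein synthesis. The inducible HSP70 chaperones are made when proteins misfold. Receptors for cytokines and growth factors, ephrins and semaphorins carry signals between islet cells, and fatty acid metabolism affects insulin secretion.

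All 4 arrays had the insulin genes among their signals, with Ins2 between 18.54 and 18.64 and Ins1 between 18.09 and 18.13. The label on sex did not match the signal, since none of 7 probes for Y-linked genes was well above background on any array, while the Xist probe read 23.7 to 33.5 times its local background. MOTS-c replicate 3 stood apart on the first principal component, which held 55.1% of the variance, with a score of 44.6 against -5.15 for MOTS-c replicate 2 and -9.14 and -30.3 for the scrambled arrays. The median absolute difference between the scrambled arrays was 0.155, and that between scrambled replicate 2 and MOTS-c replicate 2 was 0.154. No probe passed limma at an adjusted p under 0.05 (0 of 32868, 0%), and 2591 (7.88%) had an unadjusted p under 0.05, where 955 were higher and 1636 lower with MOTS-c. The t-test that the methods name called 2 probes after adjustment and 2172 before it. It takes the spread from the 4 values of each probe alone, so arrays of a group that coincide can give a call. With a trend, limma called 0 and 2761. The values below were therefore chosen by the comparison they describe and carry no test.

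The difference between the group means ranged from 0.32 to 0.92 over the 85 probes, with a median of 0.48, which is 1.39-fold. It reached 1.5-fold in 18 probes. The median over all bright probes was 0.004. The gap had a median of 0.36, was at least 0.4 in 25 probes and at least 0.5 in 7. Without any limit on its size, a gap in favor of MOTS-c was present in 2662 of the bright probes, which is 20.8%, and one in favor of the scrambled peptide in 2738, which is 21.4%. The replicate SD within a group had a median of 0.07 over the members, and the rule itself favors a small spread. The scrambled arrays differed by a median of 0.10 over members and 0.11 over all bright probes. For the MOTS-c arrays these medians were 0.08 and 0.13. The error that the scanner software assigned to a spot was 10.0% of its signal for the member spots on every array, or 0.14 on the log2 scale, and the smallest signal of a member spot was 11.8 times its local background.

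**Figure D1:**
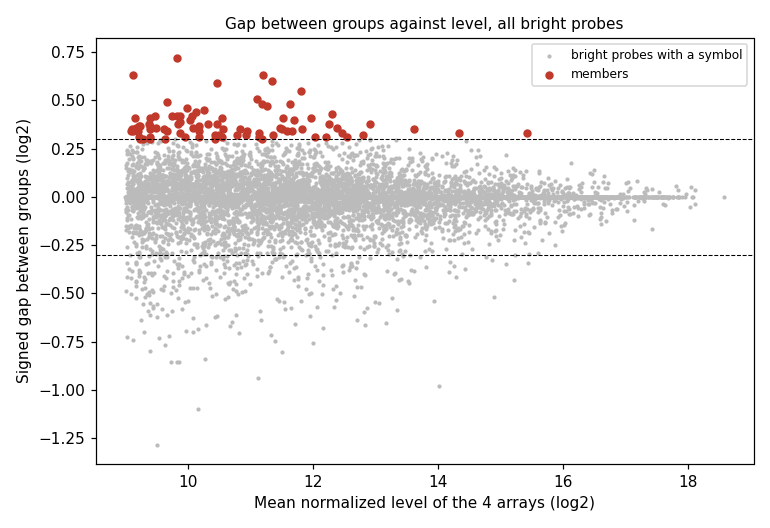
Gap between the groups (log2, positive where both MOTS-c arrays were above both scrambled arrays, negative where both were below, 0 where the groups overlapped) against the mean normalized level of the 4 arrays (log2), for the 12815 bright probes with a symbol. Red points are the 85 members, the dashed lines lie at a gap of 0.3 in either direction, and 292 probes lie beyond the lower line.

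Members were spread over the range of signal, and their share fell as the signal grew. They were 1.35% of the bright probes with a level of 9 to 10, 0.861% at 10 to 11, 0.781% at 11 to 12, 0.431% at 12 to 13 and 0.0878% above 13. The mirrored set fell in the same way, from 3.94% at 9 to 10 to 0.907% above 13. The probes with the largest gaps are plotted array by array.

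**Figure D2:**
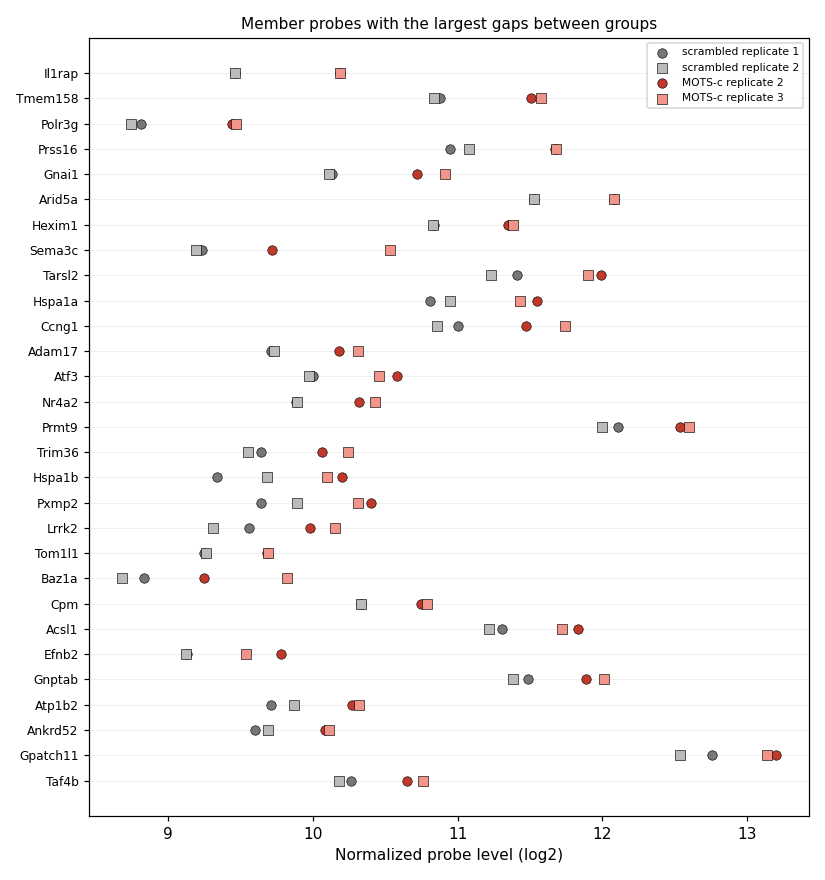
Normalized level (log2) of 29 of the member probes with the largest gaps, 1 row per gene, with grey symbols for the scrambled arrays and red symbols for the MOTS-c arrays. In every row both red symbols lie to the right of both grey ones, as the selection requires, and where 2 arrays of a group coincide only 1 symbol is visible.

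Genes of stress and the early response made up 10 of the 84, in classes formed after the names were seen. Only members were put in classes, so the class sizes have no share of all bright genes beside them. Atf3, a stress-induced transcription factor, read 10.00 and 9.97 on the scrambled arrays against 10.58 and 10.46 on the MOTS-c arrays, a difference of 0.53. Nr4a2, a nuclear receptor of the early response, read 9.88 and 9.89 against 10.32 and 10.43, a difference of 0.50. Nr4a1, its close relative, read 10.53 and 10.83 against 11.23 and 11.15, a difference of 0.51. The scrambled arrays were almost alike for Atf3 and Nr4a2 and lay 0.30 apart for Nr4a1, whose gap of 0.32 became 0.199 when the background was corrected with normexp. Hspa1a, an inducible HSP70 chaperone, read 10.81 and 10.95 against 11.55 and 11.43, a difference of 0.61. Hspa1b, its near-identical neighbor, read 9.34 and 9.68 against 10.20 and 10.10, a difference of 0.64. Probes of such similar transcripts may each capture both, so the pair is not necessarily 2 separate measurements.

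The promoters of these 5 genes are shown because the genes belong to the lists of immediate early genes and heat shock genes, and each set is classically driven by an element close to the start. Each line gives the 250 bases before the transcription start, 5′ to 3′ on the gene's strand, from RefSeq on GRCm38.p6. In Atf3, Nr4a1 and Nr4a2 the capitals mark TGACG on either strand, the short form of the cAMP response element, and in Hspa1a and Hspa1b they mark GAANNTTC, a core of the heat shock element. The regions are chr1:191183334-191183583 (minus strand) for Atf3, chr15:101266596-101266845 (plus) for Nr4a1, chr2:57124004-57124253 (minus) for Nr4a2, chr17:34972157-34972406 (minus) for Hspa1a and chr17:34959239-34959488 (minus) for Hspa1b.
Atf3: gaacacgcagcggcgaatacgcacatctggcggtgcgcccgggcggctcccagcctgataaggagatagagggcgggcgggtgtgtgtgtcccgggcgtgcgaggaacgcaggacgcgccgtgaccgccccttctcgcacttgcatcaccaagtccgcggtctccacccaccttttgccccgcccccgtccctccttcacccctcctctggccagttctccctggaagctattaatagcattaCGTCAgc
Nr4a1: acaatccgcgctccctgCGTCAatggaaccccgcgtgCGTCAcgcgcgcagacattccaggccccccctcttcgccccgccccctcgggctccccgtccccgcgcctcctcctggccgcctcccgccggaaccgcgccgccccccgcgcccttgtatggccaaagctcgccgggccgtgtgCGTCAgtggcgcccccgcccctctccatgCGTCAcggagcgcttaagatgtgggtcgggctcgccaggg
Nr4a2: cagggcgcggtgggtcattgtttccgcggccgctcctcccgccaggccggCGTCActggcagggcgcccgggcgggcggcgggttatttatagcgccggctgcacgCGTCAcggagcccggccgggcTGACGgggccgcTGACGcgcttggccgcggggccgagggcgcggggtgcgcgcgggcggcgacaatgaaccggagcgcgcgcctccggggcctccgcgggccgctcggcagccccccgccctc
Hspa1a: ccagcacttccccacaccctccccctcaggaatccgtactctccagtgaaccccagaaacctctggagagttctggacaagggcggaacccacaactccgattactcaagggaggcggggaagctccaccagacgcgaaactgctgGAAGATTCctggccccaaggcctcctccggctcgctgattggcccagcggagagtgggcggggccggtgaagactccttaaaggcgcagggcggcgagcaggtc
Hspa1b: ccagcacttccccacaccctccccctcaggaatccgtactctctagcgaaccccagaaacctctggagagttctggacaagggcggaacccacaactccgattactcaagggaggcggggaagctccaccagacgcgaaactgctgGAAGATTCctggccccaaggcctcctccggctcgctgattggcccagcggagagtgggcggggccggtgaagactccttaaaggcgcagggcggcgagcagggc

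The short cAMP response element was found 4 times each in the promoters of Nr4a1 and Nr4a2 and once in that of Atf3, where it ended 3 bases before the start. At least 1 match was present in 25.4% of the 67 members with a promoter in the table, 29.3% of 8002 bright genes and 17.9% of all 27025 promoters. At least 2 matches were present in 8.96% of members, 8.29% of bright genes and 4.02% of all promoters, and at least 3 in 2.99%, 1.74% and 0.696%. The limit of 4, which is the count seen in Nr4a1 and Nr4a2, was reached by these 2 members (2.99%), 0.437% of bright genes and 0.152% of all promoters. Both HSP70 promoters held 1 heat shock core, 97 to 104 bases before the start, and they were alike at 247 of 250 positions. That core was present in 5 members (7.46%), the other three being Adgra3, Alg13 and Ier5l, and in 4.72% of bright genes and 6.78% of all promoters. The AP-1 letters TGANTCA were searched too and were not in these 5 windows. These are matches of letters, not measured binding.

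Most other immediate early genes did not follow the 3 members. The list held 26 bright probes of 22 genes, of which 3 (11.5%) were members, and none was in the mirrored set. The shares over all bright probes were 0.663% and 2.28%. In 8 probes (30.8%) both MOTS-c arrays were above both scrambled arrays, and in 5 (19.2%) both were below, against 20.8% and 21.4% of all bright probes. The median difference was 0.07. A further Nr4a2 probe read 10.37 and 10.44 against 10.69 and 10.90. Klf4, a transcription factor of epithelial cells, read 12.60 and 12.23 against 12.88 and 13.03, just short of the rule. Fos, a subunit of AP-1, read 10.23 and 10.55 against 10.71 and 10.20, so its groups overlapped, and Dusp6, a phosphatase of the ERK kinases, read 11.68 and 12.00 against 11.64 and 11.32. Several genes, Fos, Dusp2 and Ier2 among them, were highest on MOTS-c replicate 2 alone. Klf10 read 11.84 and 11.88 against 12.09 and 12.19. A Crem probe read 9.72 and 10.00 against 10.53 and 10.23, while another Crem probe overlapped between groups.

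**Figure D3:**
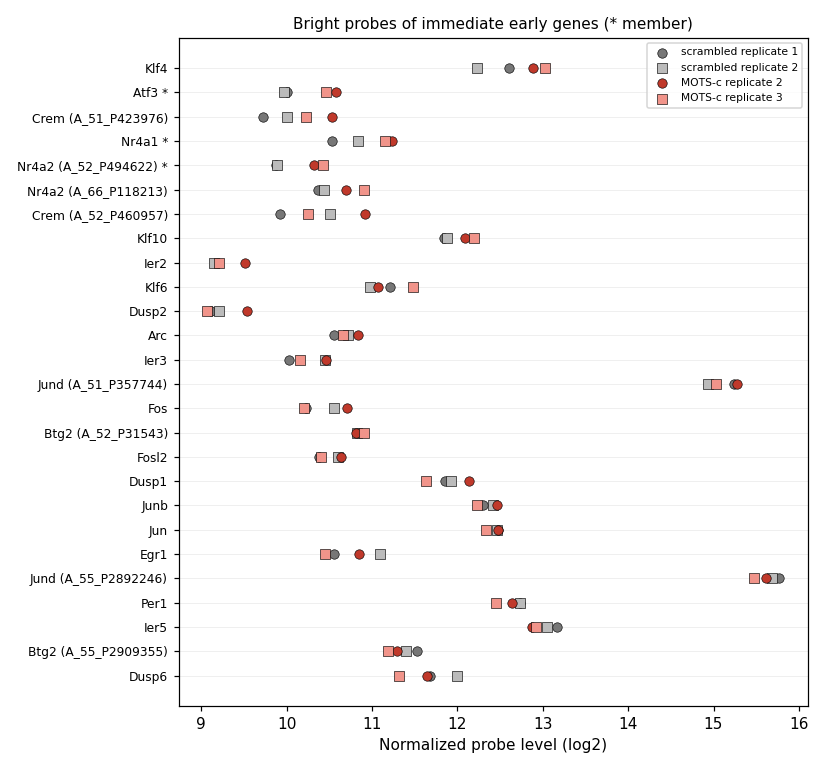
Normalized level (log2) of the 26 bright probes of the immediate early list on each array, ordered by the difference between groups, with the probe name given where a gene has several. Asterisks mark the members Atf3, Nr4a1 and Nr4a2, and the groups overlap or run the other way for most genes in the lower part of the plot.

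Of 55 bright probes of heat shock proteins and cochaperones, the 2 HSP70 probes (3.64%) were members, against 0.663% of all bright probes. The MOTS-c arrays were both above in 20 probes (36.4%) and both below in 6 (10.9%), against 20.8% and 21.4% of all bright probes, and the median difference was 0.09. A probe of Hspa8, the constitutive HSP70, read 16.00 and 16.03 against 16.13 and 16.08. Bag3, a cochaperone that is also induced by heat shock, read 13.85 and 13.87 against 13.73 and 13.33, which is lower. Hspb8, the small heat shock protein that binds Bag3, read 13.44 and 13.25 against 13.11 and 13.01. Hspa4, a relative of HSP70, came nearest to the rule, at 14.54 and 14.32 against 14.78 and 14.93. The integrated stress response list, with 50 bright probes, held no member and had a median difference of -0.10. In it 2.0% of probes were entirely higher and 40.0% entirely lower. The lists for folding in the endoplasmic reticulum (61 probes) and for antioxidant genes (44 probes) held no member either, against 0.663% of all bright probes. Entirely higher and entirely lower were 14.8% and 24.6% of the folding probes, and 36.4% and 9.09% of the antioxidant probes.

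The other five stress genes were Ccng1, Ier5l, Tiparp and the J domain cochaperones Dnajc1 and Dnajc12. Ccng1, the p53 target cyclin G1, read 11.00 and 10.86 against 11.47 and 11.74. Among 22 bright probes of p53 targets it was the only member (4.55%, against 0.663% of all bright probes). Of these probes 3 (13.6%) were entirely higher and 7 (31.8%) entirely lower, against 20.8% and 21.4% of all bright probes, with a median difference of -0.07. Tiparp, an ADP-ribosyltransferase induced by the aryl hydrocarbon receptor, read 10.26 and 9.92 against 10.57 and 10.98, with a spread of 0.34 and 0.41 inside the groups. Dnajc12 read 13.37 and 13.46 against 13.81 and 13.82. Ier5l and Dnajc1 differed by 0.59 and 0.53.

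Receptors, ligands and adhesion molecules gave 13 members, with differences from 0.43 to 0.92. Il1rap, the chain that the interleukin-1 and interleukin-33 receptors share, had the largest gap of all. Its scrambled arrays read 9.46 and 9.46 and its MOTS-c arrays 10.19 and 10.19, a gap of 0.72 and a 1.66-fold difference, with arrays of a group alike to the second decimal. A second Il1rap probe with a weak signal read 6.71 and 6.50 against 7.09 and 6.84. Tmem158, a membrane protein first described as induced by oncogenic Ras, read 10.88 and 10.84 against 11.51 and 11.58. Sema3c, a secreted semaphorin, had the largest difference of all, 0.92, but its MOTS-c arrays were the furthest apart, at 9.72 and 10.53 against 9.23 and 9.19. It lay 0.51 above the scrambled mean on MOTS-c replicate 2 and 1.32 on replicate 3.

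Adam17, the sheddase that frees TNF and ligands of the EGF receptor, read 9.71 and 9.73 against 10.18 and 10.31. Efnb2, an ephrin-B ligand, read 9.13 and 9.12 against 9.78 and 9.54. Efna5, an ephrin-A ligand known for contacts between beta cells, read 9.21 and 9.09 against 9.59 and 9.59. All of these had scrambled arrays within 0.12 of each other. Igf1r, the receptor of insulin-like growth factor 1, read 11.30 and 11.64 against 12.35 and 11.99, so both groups were spread by about as much as the gap of 0.35 between them. Its other probe showed the 4 arrays in the same order, 8.34 and 8.83 against 9.42 and 9.05. Igf1r was the only member among 25 bright probes of the senescence and cell cycle inhibitor list (4.0%, against 0.663% of all bright probes). There 2 probes (8.0%) were entirely higher and 10 (40.0%) entirely lower, against 20.8% and 21.4% of all bright probes, and the median difference was -0.11. The remaining members of the class were Tnfrsf23, a decoy receptor of TRAIL (difference 0.59), the chemokine-like factor Cklf (0.58), the adhesion molecules Alcam (0.54) and Pvr (0.46), the adhesion receptor Adgra3 (0.43) and Kremen1, a receptor of the Wnt antagonist Dickkopf (0.43). The gap of Pvr was 0.366 and became 0.24 with normexp.

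Transcription and chromatin gave 15 members, with differences from 0.33 to 0.78. Polr3g, a subunit of RNA polymerase III, read 8.81 and 8.74 against 9.44 and 9.47. Arid5a, an AT-rich interaction protein that also stabilizes inflammatory mRNAs, read 11.53 and 11.53 against 12.08 and 12.08. Hexim1, which holds the elongation factor P-TEFb inactive, read 10.84 and 10.83 against 11.35 and 11.38. In these genes the arrays of a group lay within 0.07 of each other, and their gaps of 0.63, 0.55 and 0.51 were among the 7 of at least 0.5. Baz1a, a subunit of a chromatin remodeler, read 8.83 and 8.68 against 9.25 and 9.82, which is 0.49 and 1.07 above the scrambled mean. Taf4b and Taf13, subunits of the general factor TFIID, differed by 0.48 and 0.37.

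H3f3b, which encodes the replication-independent histone H3.3, read 15.25 and 15.26 against 15.59 and 15.59. It was the only member among 45 bright histone probes (2.22%, against 0.663% of all bright probes). Its gap of 0.33 became 0.144 under a 75th percentile shift. Epop, a partner of Polycomb repressive complex 2, read 12.28 and 12.22 against 12.72 and 12.60, and Pcgf5, a subunit of Polycomb repressive complex 1, read 11.89 and 11.73 against 12.21 and 12.27. Pphln1, part of the HUSH silencing complex, differed by 0.37 and Ints8, of the Integrator complex, by 0.40. The others were the zinc finger gene Zfp454 (0.34), Greb1l (0.56), Phtf2 (0.46) and Nif3l1 (0.34).

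Intracellular signaling gave 8 members. Gnai1, an inhibitory G protein subunit that lowers cAMP, read 10.13 and 10.11 against 10.72 and 10.91. It was the only member among 54 bright probes of G protein signaling (1.85%, against 0.663% of all bright probes). Of these probes 4 (7.41%) were entirely higher and 21 (38.9%) entirely lower, against 20.8% and 21.4% of all bright probes. Lrrk2, a kinase of Rab GTPases, read 9.56 and 9.31 against 9.98 and 10.15. Mknk2, a kinase of the translation factor eIF4E, read 14.16 and 14.16 against 14.55 and 14.49, with a gap of 0.33 that became 0.189 under the percentile shift. Tom1l1, an endosomal adaptor, read 9.25 and 9.26 against 9.68 and 9.69. Ankrd52, Rab40b, Itpka and Strip2 differed by 0.45, 0.47, 0.45 and 0.36.

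Metabolism and mitochondria gave 10 members, in a narrow band of gaps from 0.35 to 0.42. Acsl1, which activates long-chain fatty acids, read 11.31 and 11.22 against 11.83 and 11.72. It was the only member among 23 bright probes for fatty acid handling (4.35%, against 0.663% of all bright probes), whose median difference was 0.02. Pxmp2, a channel of peroxisomes, read 9.64 and 9.89 against 10.40 and 10.31, and Abhd5, which activates the main triglyceride lipase, read 8.82 and 9.10 against 9.47 and 9.56. Carnmt1, the carnosine methyltransferase, read 12.07 and 11.81 against 12.45 and 12.70.

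Yme1l1, a protease of the inner mitochondrial membrane, read 9.05 and 8.73 against 9.41 and 9.50, but a second probe overlapped between groups, at 11.38 and 10.88 against 11.22 and 11.32. Mcur1, a regulator of mitochondrial calcium uptake, differed by 0.42, and its second probe by 0.08. Tpmt and Macrod2 differed by 0.46 and 0.43. None of 98 bright probes of nuclear respiratory chain genes and none of 100 of mitochondrial ribosomal proteins was a member. Neither were any of 142 for cytosolic ribosomal proteins or 89 for the proteasome and ubiquitin. Members were 0.663% of all bright probes, a share at which lists of this size may hold none.

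Among transporters and channels, Slc2a13, the proton-coupled inositol transporter, read 11.19 and 11.22 against 11.89 and 11.58. Slc30a1, which exports zinc across the plasma membrane, read 10.35 and 10.20 against 10.67 and 10.72. They were 2 of 197 bright probes of solute carriers (1.02%), while 10 (5.08%) were in the mirrored set. Over all bright probes these shares were 0.663% and 2.28%. Atp1b2, a beta subunit of the sodium pump, read 9.71 and 9.87 against 10.27 and 10.32. The glutamate receptor auxiliary subunit Neto2 and the aquaporin Aqp11 differed by 0.52 and 0.48.

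Among genes of the lysosome and glycosylation, Gnptab, which starts the mannose 6-phosphate tag of lysosomal enzymes, read 11.49 and 11.38 against 11.89 and 12.01. Alg13, of N-glycan assembly, differed by 0.37. The list of lysosome and autophagy genes, with 43 bright probes, held none of the members, against a share of 0.663% over all bright probes.

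Proteases and protein turnover gave 7 members. Prss16, a serine protease known from the thymus, read 10.95 and 11.08 against 11.67 and 11.68. Trim36, a ubiquitin ligase, read 9.64 and 9.55 against 10.06 and 10.24. Cpm, a carboxypeptidase of the cell surface, read 10.33 and 10.33 against 10.75 and 10.79. Their gaps were 0.60, 0.42 and 0.41. Otud6b, Nln, Cast and Simc1 differed by 0.55, 0.53, 0.41 and 0.34, and Cast is calpastatin, the inhibitor of calpains.

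Genes of RNA, translation and DNA repair gave 6 members. Tarsl2, a threonyl-tRNA synthetase like enzyme, read 11.41 and 11.23 against 11.99 and 11.90. Prmt9, which methylates a splicing factor, read 12.11 and 12.00 against 12.54 and 12.60. Gpatch11, a G-patch protein, read 12.76 and 12.54 against 13.20 and 13.14. In each of them the difference was above 0.5. Tdp1, which repairs topoisomerase lesions, Riok1, a kinase of ribosome maturation, and Pstk, of selenocysteine synthesis, differed by 0.37, 0.35 and 0.32, the last being the smallest difference of all members.

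The cytoskeleton, cilia and cell division class held 7 members with differences only between 0.41 and 0.47. They were Add3, an adducin of the membrane skeleton, Myo6, a myosin that moves toward the minus end of actin, Stil, needed to duplicate centrioles, Tulp3, which carries receptors into cilia, Txlng, and the Hippo pathway proteins Amot and Frmd6.

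The selection took probes near its limits with no break in the values. The last probes inside the gap limit were Frmd6, Riok1, Alcam, Zfp454 and Amot, with gaps of 0.303 to 0.30, and the first outside were Evi5, Ccdc92, Lrrc8b, Plagl1 and Naa16, with 0.299 to 0.296. At the level limit, Polr3g, Nln and Simc1 had means of 9.12, 9.10 and 9.09, and Echdc1, Clip1 and Mylk were left out at 8.97, 8.96 and 8.94.

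The MOTS-c arrays did not contribute equally. Of the 85 probes, 51 (60.0%) were higher on MOTS-c replicate 3 than on replicate 2, against 37.3% of all bright probes. The median distance from the scrambled mean was 0.44 on replicate 2 and 0.48 on replicate 3. The range was 0.30 to 0.87 on replicate 2 and 0.31 to 1.32 on replicate 3. Arrays of a group were within 0.1 of each other on both sides in 28 probes. In 7 probes the MOTS-c arrays lay more than 0.3 apart, and these were Sema3c, Baz1a, Tiparp, Igf1r, Cklf, Otud6b and Slc2a13. In 5 the scrambled arrays did, with the highest value, 0.34, shared by Hspa1b, Igf1r and Tiparp.

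**Figure D4:**
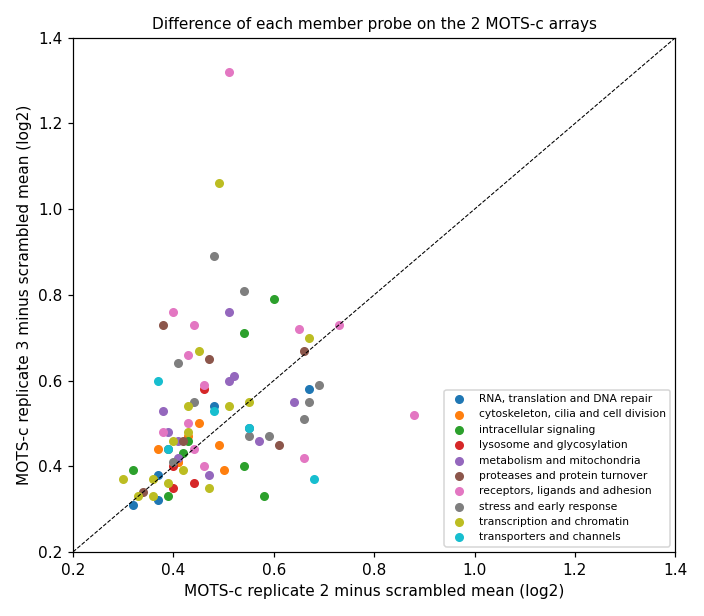
Level of each of the 85 member probes on MOTS-c replicate 2 (horizontal) and replicate 3 (vertical), each as the difference from the mean of the scrambled arrays (log2), colored by functional class, with a dashed line of equality. Most probes lie between 0.3 and 0.8 on both axes, and the highest points on the vertical axis are Sema3c at 1.32 and Baz1a.

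The array carries other probes for many of these genes, which the rule did not select. In 47 of the 84 genes, another 59 probes passed the background filter on all 4 arrays. Of these, 22 were bright and fell short of the gap limit, and 37 were below the level limit. They are what the rule left of the same genes and no independent check. The median difference of the 59 probes was 0.29. Of them, 58 (98.3%) were above 0, against 51.4% of the 21814 probes with a symbol that were well above background. In 40 (67.8%) both MOTS-c arrays were above both scrambled arrays, against 20.3% of those probes, and in none were both below. The exception in sign was a weak Frmd6 probe, which read 5.21 and 5.47 against 5.23 and 4.66. In 53 the difference was smaller than that of the member probe. These probes share RNA, arrays and often transcripts with the members, so they are further readings of the same samples and not replicates.

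Single genes varied in how well their probes matched. A second Polr3g probe read 8.52 and 8.16 against 9.10 and 8.85, and a second Tpmt probe 8.26 and 8.22 against 8.80 and 8.72. A second Tarsl2 probe read 7.54 and 7.60 against 8.07 and 8.03. Those pairs repeated most of the difference. By contrast, 2 further Tnfrsf23 probes overlapped between groups with differences of 0.05 and 0.08, and the 3 further Txlng probes overlapped too. A further probe also overlapped between groups for Alcam, Neto2, Simc1, Nif3l1, Riok1, Greb1l and Acsl1, among others. For 37 genes the array held a single probe that was well above background on all 4 arrays.

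**Figure D5:**
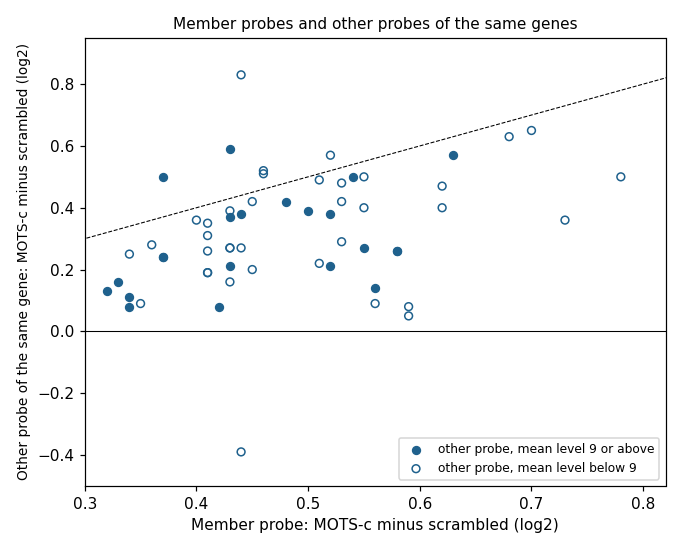
Difference between MOTS-c and scrambled (log2) of the 59 other probes of the member genes (vertical) against that of the member probe of the same gene (horizontal), filled where the other probe had a mean level of at least 9 and open where it was dimmer. Nearly all points lie above 0 and most lie below the dashed line of equality, and the single point below 0 is Frmd6.

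Features of the genes that the rule did not use were also compared. Their median span from start to end in the RefSeq table was 39.9 kb (quartiles 16.0 and 79.2), against 22.1 kb (9.29 and 52.1) for the bright genes and 24.6 kb for the mirrored set. Spans over 100 kb were found in 17 members (20.2%), 11.7% of bright genes and 16.7% of the mirrored set. Macrod2 spanned 2000 kb and Ier5l 1.57 kb. The promoters of the 67 members in the table had a median GC content of 67.2%, against 60.4% for bright genes and 60.8% for the mirrored set. Of the 17 motifs searched, 8 were present in a larger share of members than of bright genes and 9 in a smaller one. The largest difference was that of the GC box GGGCGG, found in 76.1% of members, 61.7% of bright genes, 54.9% of the mirrored set and 32.9% of all promoters, on either strand. A smaller share of members than of bright genes held the YY1 core AANATGG, at 4.48% against 10.4%. It was in 5.64% of the mirrored set and 12.5% of all promoters. The share was also smaller for the ETS core CCGGAAG, at 8 of 67 members and 1202 of 8002 bright genes. That core was in 2 of 195 genes of the mirrored set and 1906 of all 27025 promoters. The full cAMP response element TGACGTCA was found in 1.49% of members, 3.17% of bright genes, 1.03% of the mirrored set and 1.62% of all promoters. These are descriptions of a set taken from 4 arrays, with no test.

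Members were found on every chromosome but Y. Chromosome 13 held 8 of the 84 genes (9.52%) and 3.80% of the bright genes, and these were Cast, Mcur1, Nln, Polr3g, Prss16, Riok1, Simc1 and Tpmt. Among bright genes in order along a chromosome, 3 pairs of members were next to each other, namely Hspa1a with Hspa1b, Sema3c with Gnai1, and Slc2a13 with Lrrk2.

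Of 48 gene lists, 15 held a member and 16 member genes were on at least 1 of them. None was a marker of islet or other pancreatic cell types. The summed level of the acinar markers (4 of 9 well above background on all 4 arrays) was 10.04 and 10.30 with the scrambled peptide against 9.58 and 9.05 with MOTS-c. The Schwann cell markers (2 of 4) summed to 8.55 and 8.62 against 8.23 and 8.13, and the mesenchymal markers (4 of 9) to 12.49 and 12.36 against 12.28 and 12.27. The alpha cell markers (4 of 6) summed to 15.82 and 15.90 against 15.93 and 15.90, and the beta cell markers (6 of 8) to 19.72 and 19.76 against 19.71 and 19.71. The part of these shifts in the members' values was not tested.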

How the data were processed

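Feature Extraction (version 11.0.1.1) files of the 4 arrays and a value table were analyzed. The authors deposited intensity values to which only a within-array background correction had been applied, and the value table holds the same intensities, its ratio to the scanner values lying between 0.995 and 1.005. Control spots and outlier spots (96 to 131 per array) were removed. The deposited processed signals were put on the log2 scale, spots of a probe were averaged, and the 32868 probes well above background on all 4 arrays were normalized by the quantile method. Between 61.6% and 65.0% of gene spots per array were well above background and none was saturated. The number of arrays limits the precision. Feature Extraction's spot error was also read.

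Gene symbols came from matching RefSeq accessions to the GRCm38.p6 gene table, which named 32994 of 56605 probes. The arrays follow an annotation of an earlier mouse build, so coordinates are given only for promoter sequences of that table. Promoters were searched for 17 motifs on both strands in the first listed start of each gene, and a full cAMP response element counts as 2 matches of its short form. limma (version 3.58.1, in R 4.3.3) with Benjamini-Hochberg adjustment gave the counts over all probes, with 2 residual degrees of freedom and 3.02 added from the other probes. The limma step and the selection rule were tested on simulated data.

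Some members are not reported here by name. The members and lists were chosen with earlier results of these data known. Genes to name were the 30 members with the largest gap, the 15 with the highest level, members on a gene list and genes with 2 member probes. The 5 members inside and 5 probes outside the gap limit and 3 on each side of the level limit were added. The members not reported are left out of the text. Other members are named as examples of classes formed afterwards, and the other immediate early, heat shock and marker probes were chosen after their values were seen. Replicate samples come from littermates, and any p-value measures only the spread between them. Alternatives were a 75th percentile shift, normexp background correction (offset 50, median signals), the value table, probes above background on at least 2 arrays, outliers kept, each array left out, other limits, and for the tests a trend and the methods' t-test.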

Additional observations from a re-analysis of the deposited data

Results flagged for a closer look

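Another 11 bright probes without a gene symbol met the same limits, outside the set described above, with differences of 0.36 to 0.70 and mean levels of 9.21 to 15.08. A further 52 unnamed probes met the mirrored limits. These probes carry accessions that the RefSeq gene table does not pair with a symbol and were not analyzed further.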

How the results depend on the processing

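Under the 5 alternatives to the normalization, background, filter, outlier and value-table choices, the number of bright probes higher on both MOTS-c arrays was 73 to 118 and that of lower probes 292 to 332. The members kept were 71 of 85 with the percentile shift, 70 with normexp and 83 with the value table, and 60 met the rule under all 5. No member changed sign under them, where the median difference was 0.47 to 0.48. Other limits changed the counts. A gap of 0.2 gave 289 higher and 578 lower probes, a gap of 0.5 gave 7 and 84, a mean of at least 8 gave 128 higher and a mean of at least 10 gave 52. Keeping probes without a symbol gave 96 and 344. With 1 array left out, fewer values have to clear the gap, and the higher count was 599 without scrambled replicate 1, 234 without scrambled replicate 2, 804 without MOTS-c replicate 2 and 213 without MOTS-c replicate 3, and the lower count was 550, 483, 993 and 456 in the same order. limma called 0 to 2 probes at an adjusted p under 0.05 with 1 array left out, the 2 without MOTS-c replicate 2, where the lone array is assumed to vary like the other group, and the methods' t-test called 2. No paired analysis was possible because the groups share only the replicate number 2. Probe signals near background limit what could enter the set, since dim probes were not considered.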
